A study of Mus musculus with 30 samples.

Results

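The genes that encode the nuclear pore complex were followed from mouse embryonic stem cells (ESC) into day 5 embryoid bodies (EB), in total RNA and across a polysome gradient. Members were taken by symbol: every Nup gene, Nupl1, Nupl2 and the named pore genes Ranbp2, Pom121, Seh1l, Sec13, Aaas, Ndc1 and Rae1, which gave 28 genes and 73 probe sets of the 45101 on the array. Of several probe sets for a gene, the brightest on average over all 30 arrays stood for it. Levels therefore chose the probe sets and are a description, while the choice used no difference between states or pools. A filter on low signal left 27 of the 28 genes among 13250 tested, and Nup210l, the paralogue of Nup210, fell below it and was not tested. Tpr, a protein of the nuclear basket, was also named by the rule and was not analysed here. Nor were Nup35, listed with the inner ring, and Nup62cl, listed with the central channel.

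The EB were grown for 5 days without LIF, the cytokine that keeps mouse ESC undifferentiated, and the ESC were of the R-1 line kept with LIF. Cells of both states were held for 15 min in 150 ug/ml cycloheximide, which halts ribosomes on mRNA. Cytoplasmic lysate was then separated on a sucrose gradient, which sorts mRNAs by the number of ribosomes they carry, and the fractions were combined into 4 pools. There were 3 EB and 3 ESC cultures, given by the labels as biological replicates, each with 1 total RNA array and 4 pool arrays. The labels do not say at which end of the gradient pool 1 lay, so pools are named by number. An embryoid body is a mixture of differentiating cells from 1 cell line, so fewer cells of a type and less RNA per cell cannot be told apart in these bulk samples.

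The nuclear pore complex is the channel through which proteins and RNA pass between nucleus and cytoplasm. Its scaffold is made of an outer ring of Y-shaped complexes and an inner ring, anchored by proteins that cross the nuclear membrane. Proteins rich in phenylalanine-glycine (FG) repeats line the central channel and bind transport receptors, filaments reach into the cytoplasm, and a basket faces the nucleoplasm. In mouse cells some pore proteins are known to matter for differentiation: Nup210 is needed for myogenic and neural differentiation, and Nup133 for efficient neural differentiation.

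The deposited values were scaled to bacterial spike-in RNAs, whose 24 probe sets averaged between 9.43 and 9.78 (log2) on every array, and on that scale most genes were higher in EB. The median difference of all 13250 genes in total RNA, EB minus ESC, was 0.96 on the deposited log2 scale, and it was 0.03, 0.36, 0.98 and 0.84 in pools 1 to 4. Differences are therefore given relative to all genes, after quantile normalization of log2(signal + 32) over the arrays compared, with the deposited value beside them where the direction changes. Mean signal ranged from 72.4 to 577.8 over the arrays, and replicate arrays correlated across genes at 0.906 or more. EB pool 2 replicate 3 gave the lowest of these correlations and the highest signal of the hybridisation controls, 13.9 (log2). Actb probe sets at the 3′ and 5′ ends, which read the length of the labelled RNA, differed by 2.26 ± 0.22 in EB total RNA and by 3.10 ± 0.29 in ESC total RNA (log2, 3′ minus 5′, SD, n = 3 each, exact two-sided permutation p = 0.1, the smallest that 3 against 3 allow). This difference was also smaller in EB than in ESC on average in every pool (2.55 in EB and 4.06 in ESC for pool 1, 0.74 in EB and 2.30 in ESC for pool 4), and its part in the results was not tested. Of 7 ESC markers, 1 was called higher and 2 lower in EB total RNA, against 6.55% and 6.09% of all genes. Their median difference was -0.30 (log2 relative to all genes), and the differences ran from -1.69 for Klf4 to 0.53 for Nanog. The 7 markers summed to between 0.202% and 0.211% of the signal in EB and to between 0.231% and 0.246% in ESC. Fibroblast markers, of which 2 of 7 passed the filter, summed to between 0.00107% and 0.00142% in EB and to between 0.00145% and 0.0026% in ESC, with Col1a1, Col3a1, Postn, Twist1 and Lum below it. Endoderm markers had 3 of 5 called higher in EB and none lower (median 0.82 on the log2 scale) and summed to between 0.0027% and 0.00319% in EB and to between 0.000521% and 0.00155% in ESC. Of 4 early EB markers 1 was higher and 2 lower, and their sum was 0.0261% to 0.0319% in EB and 0.0169% to 0.0209% in ESC. Of 3 tested streak and mesoderm markers 1 was higher and none lower, with sums of 0.00158% to 0.00243% in EB and 0.000828% to 0.00105% in ESC. Of 3 neural markers 2 were lower and none higher, with sums of 0.000801% to 0.00112% in EB and 0.00121% to 0.00194% in ESC. The part of these cell types in the results was not tested.

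Promoters from RefSeq (GRCm38.p6), from 250 bases before to 50 after the gene start, were found for 24 of the 28 members. The 5 shown belong to the genes that the state comparisons turn on. Capitals mark matches on either strand to the CCAAT box (CCAAT), the GC box bound by Sp1 (GGGCGG), the ETS motif (CCGGAAGT), the NRF1 motif, YY1 (AAGATGGC) and E2F (TTTGGCGC or TTTCCCGC). Ranbp2 lies on the plus strand at chr10:58446602-58446901, Pom121 on the minus strand at chr5:135394497-135394796, Nup214 on the plus strand at chr2:31974200-31974499, Nup98 on the minus strand at chr7:102210117-102210416 and Rae1 on the plus strand at chr2:172999867-173000166.
Ranbp2: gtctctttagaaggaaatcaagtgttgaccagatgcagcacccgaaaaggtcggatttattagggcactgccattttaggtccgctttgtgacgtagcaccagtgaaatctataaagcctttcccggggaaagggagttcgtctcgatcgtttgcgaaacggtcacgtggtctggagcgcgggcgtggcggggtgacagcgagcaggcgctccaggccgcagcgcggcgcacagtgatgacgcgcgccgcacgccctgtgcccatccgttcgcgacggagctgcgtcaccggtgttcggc
Pom121: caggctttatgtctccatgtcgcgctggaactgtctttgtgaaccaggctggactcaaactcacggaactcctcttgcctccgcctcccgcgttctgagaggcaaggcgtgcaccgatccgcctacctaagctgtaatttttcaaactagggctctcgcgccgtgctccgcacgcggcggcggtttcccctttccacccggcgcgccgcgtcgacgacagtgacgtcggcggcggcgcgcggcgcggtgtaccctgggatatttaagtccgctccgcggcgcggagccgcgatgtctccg
Nup214: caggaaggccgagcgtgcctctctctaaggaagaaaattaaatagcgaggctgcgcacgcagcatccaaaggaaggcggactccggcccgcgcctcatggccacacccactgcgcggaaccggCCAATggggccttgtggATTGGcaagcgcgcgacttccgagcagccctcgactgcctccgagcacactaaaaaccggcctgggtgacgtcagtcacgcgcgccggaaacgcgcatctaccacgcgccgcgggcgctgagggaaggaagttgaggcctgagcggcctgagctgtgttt
Nup98: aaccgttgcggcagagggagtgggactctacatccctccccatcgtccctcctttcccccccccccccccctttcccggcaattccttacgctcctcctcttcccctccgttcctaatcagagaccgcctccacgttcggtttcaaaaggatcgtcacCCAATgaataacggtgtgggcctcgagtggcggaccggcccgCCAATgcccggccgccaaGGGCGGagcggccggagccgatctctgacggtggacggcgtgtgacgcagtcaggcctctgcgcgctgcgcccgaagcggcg
Rae1: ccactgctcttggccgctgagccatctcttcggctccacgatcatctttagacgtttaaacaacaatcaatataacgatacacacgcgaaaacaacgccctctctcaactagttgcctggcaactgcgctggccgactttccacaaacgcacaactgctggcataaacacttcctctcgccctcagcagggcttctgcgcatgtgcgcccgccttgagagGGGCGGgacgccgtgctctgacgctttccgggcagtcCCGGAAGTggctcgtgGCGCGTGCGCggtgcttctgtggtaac
The Ranbp2 and Pom121 windows held none of the 6 motifs. Those of Nup214 and Nup98 held 2 CCAAT boxes each, and Nup98 also a GC box. The Rae1 window held a GC box, an ETS motif and an NRF1 motif close to the gene start. Over the 24 member promoters, 16 (66.7%) held a GC box, against 35.9% of all 27025 promoters of the same length, and 9 (37.5%) held a CCAAT box, against 37.9%. The ETS motif was in 5 (20.8%) against 4% of all promoters, NRF1 in 4 (16.7%) against 4.78%, YY1 in 4 (16.7%) against 2.88%, and E2F in 1 (4.17%) against 1.63%.

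In total RNA the comparison asked which pore transcripts differed in abundance between day 5 EB and ESC. Relative to all genes, 3 members fell in EB (Ranbp2, Pom121 and Nup214) and 1 rose (Rae1), so 4 of 27 were called at an adjusted p under 0.05 (limma, Benjamini-Hochberg over 13250 genes), against 12.6% of all genes tested. The other 23 did not pass, and the median difference over the 27 was -0.0099 (log2), against -0.0042 over all genes. The EB and ESC values did not overlap for 16 of the 27, against 36.1% of all genes. On the deposited scale all 27 were called higher in EB (median 1.21), as were 78.9% of all genes, with 79.2% called in either direction. Called members numbered 1 without EB replicate 1, 1 without EB replicate 3, and 2 without EB replicate 2 or ESC replicate 3, all left out in turn.

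In the gradient the number of called members and their direction depended on the pool. Pool 1 had 10 members called (5 higher and 5 lower in EB), against 12.8% of all genes. Pool 2 had 3 called, all lower, against 7.13% of all genes, and 1 member higher and 9 lower at an unadjusted limma p under 0.05. Pool 3 had 15 called, 3 higher and 12 lower, against 23% of all genes. Pool 4 had 18 called, 12 higher and 6 lower, against 30% of all genes. The median difference over the 27 members was -0.13, -0.26, -0.35 and 0.21 in pools 1 to 4 (log2 relative to all genes), against medians between -0.0078 and 0.016 over all genes. The members' deposited medians were -0.06, 0.14, 0.96 and 1.52, and every member but Ranbp2 was above 0 as deposited in pools 3 and 4. On the deposited scale no member was called in pools 1 and 2 (0 higher and 2 lower, and 1 higher and 1 lower, at an unadjusted limma p under 0.05), where limma called 0 of 13250 genes in pool 1 and 2.41% of them in pool 2. With the replicate number as a block, limma on that scale still called 0 genes in pool 1 (1910 genes and 10 members at an unadjusted p under 0.05), and in pool 2 it called Ranbp2 lower (-1.25 ± 0.25, SE, adjusted p = 0.0189) and Rae1 higher (0.85 ± 0.22, adjusted p = 0.0358), against 16.7% of all genes. In pools 3 and 4, 15 of 27 and 23 of 27 members were called higher as deposited with none lower, against 54.9% and 75.4% of all genes called higher (55% and 75.8% in either direction). Leaving out libraries moved the count in pool 1 to 5 without EB replicate 1 or 2, to 3 without ESC replicate 1 and to 4 without ESC replicate 2 or 3. In pool 2 it moved to 0 without EB replicate 1, ESC replicate 1 or ESC replicate 2, and to 1 without EB replicate 2 or ESC replicate 3. Without EB replicate 3, the array that stood apart, 4 members were called lower in pool 2.

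**Figure D1:**
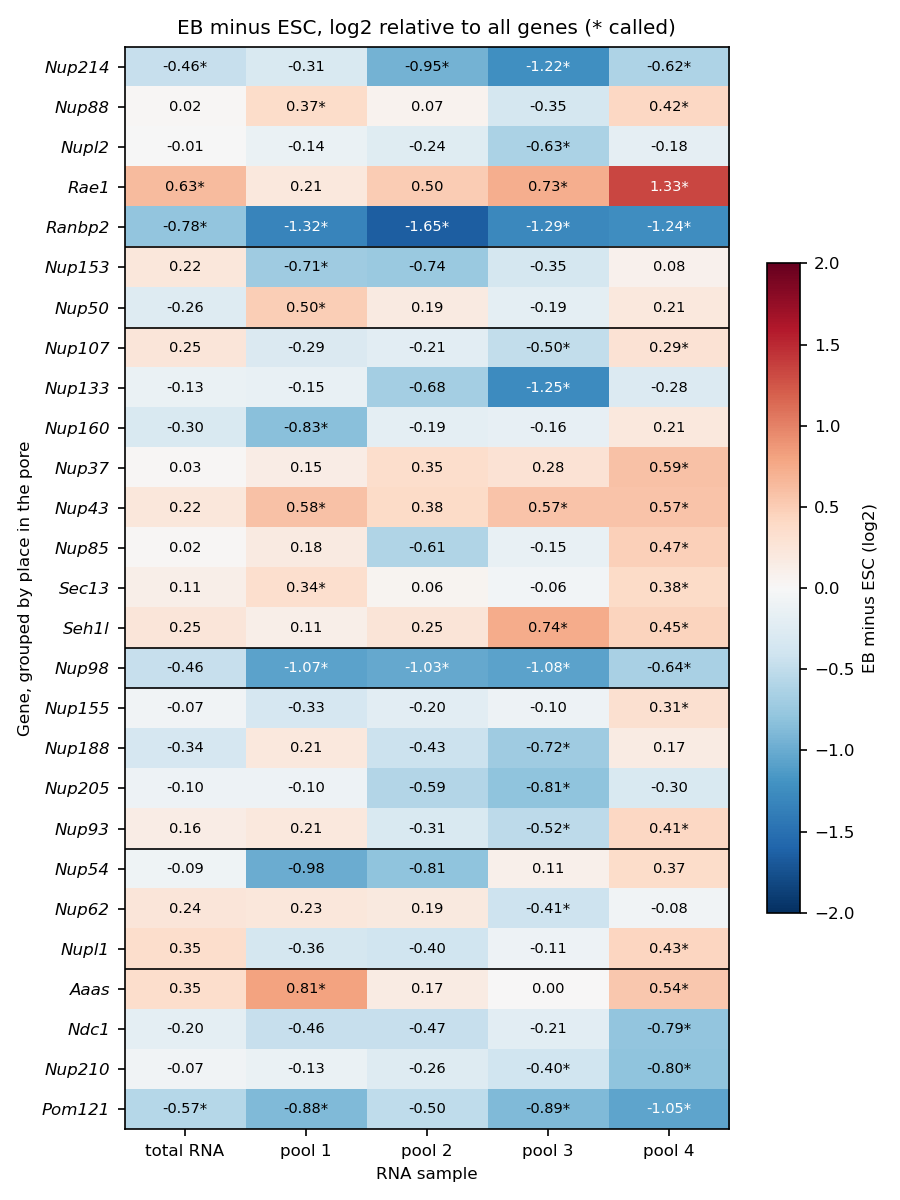
Difference between EB and ESC (log2, relative to all genes) of the 27 tested pore genes (down the page, grouped by place in the pore) in total RNA and pools 1 to 4 (across), with a star for limma adjusted p under 0.05. Ranbp2 is blue and starred in all 5 columns, Rae1 is red in all 5, and pool 4 holds 12 starred red cells; on the deposited scale all 27 members are above 0 in total RNA, and all but Ranbp2 in pools 3 and 4.

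Over the 5 state comparisons, 4 members were called lower in at least 3: Ranbp2 in 5, and Pom121, Nup214 and Nup98 in 4 each. Rae1 and Nup43 were called higher in 3 each. Nup107 and Nup93 were called in both directions, lower in pool 3 and higher in pool 4, and Nup54 was called in none of the 5. How many of all genes were called this often was not counted, so these counts describe the members only.

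The cytoplasmic side held the members with the largest changes in both directions. Ranbp2 (also Nup358) forms the cytoplasmic filaments, binds Ran and acts as a SUMO ligase. In total RNA its log2 signal was 7.90, 8.01 and 7.90 in EB, against 8.86, 8.60 and 8.69 in ESC. All 3 EB values lay below all ESC values, a difference of -0.78 ± 0.12 (SE, adjusted p = 0.00931), and the call held without each of the 6 arrays. The direction turned on the deposited scale, where Ranbp2 was 0.47 higher in EB, less than the median gene. In pool 1 it had 6.91, 7.04 and 6.68 in EB and 8.44, 8.19 and 7.97 in ESC, a difference of -1.32 ± 0.15 (adjusted p = 0.00642). In pool 2 it had 6.66, 7.11 and 6.47 in EB and 8.78, 8.55 and 7.84 in ESC, a difference of -1.65 ± 0.28 (adjusted p = 0.0118). The groups stayed apart in both pools, although the pool 2 call was lost without EB replicate 1 (adjusted p = 0.0509), ESC replicate 1 (0.0643) or ESC replicate 2 (0.0655). In pools 3 and 4 the differences were -1.29 ± 0.16 and -1.24 ± 0.16 (adjusted p = 0.000744 and 0.000812). Its deposited differences were below 0 in every pool too (-1.33, -1.25, -0.14 and -0.11 in pools 1 to 4), with no call except in pool 2 with the replicate block.

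Nup214, an FG protein of the cytoplasmic face that binds export receptors, had a total RNA log2 signal of 8.51, 8.52 and 8.50 in EB and 8.86, 9.01 and 9.05 in ESC. The difference was -0.46 ± 0.11 (adjusted p = 0.0348), with no overlap. It was lost without any 1 of the 6 arrays, with an adjusted p of 0.109, 0.0974 and 0.0945 without EB replicates 1, 2 and 3 and of 0.0536, 0.0824 and 0.0842 without ESC replicates 1, 2 and 3. In the gradient Nup214 was lower in EB, with differences of -0.95 ± 0.21 in pool 2, -1.22 ± 0.12 in pool 3 and -0.62 ± 0.09 in pool 4. Its pool 3 values were 8.05, 8.25 and 8.09 in EB and 9.45, 9.25 and 9.34 in ESC. Nup214 was, as deposited, higher in EB in total RNA (0.83), pool 3 (0.071) and pool 4 (0.68) and lower in pool 2 (-0.58), where the call was also lost without EB replicate 1 or 2 (adjusted p = 0.0902 and 0.0959) or any ESC replicate (0.113, 0.114 and 0.0746). Nup88, which binds Nup214, differed by 0.02 in total RNA and was called higher in pools 1 and 4 (0.37 ± 0.09 and 0.42 ± 0.09). The pool 1 call of Nup88 was lost without any 1 array, with an adjusted p between 0.0554 without EB replicate 2 and 0.128 without ESC replicate 2. Nupl2 (Nup42), which binds the mRNA export factor Gle1, was called lower in pool 3 (-0.63 ± 0.14; 0.36 on the deposited scale).

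Rae1, an mRNA export factor that binds Nup98, was the highest member in EB total RNA relative to ESC. It had 9.53, 9.33 and 9.43 in EB and 8.74, 8.84 and 8.82 in ESC, a difference of 0.63 ± 0.11 (adjusted p = 0.015; 1.90 deposited). The groups did not overlap, and the call was lost without EB replicate 1 (adjusted p = 0.0685) or EB replicate 3 (0.0517). Rae1 was also called higher in pool 3 (0.73 ± 0.13) and pool 4. In pool 4 it had 9.89, 10.10 and 10.19 in EB and 8.80, 8.58 and 8.80 in ESC, a difference of 1.33 ± 0.11 (adjusted p = 0.000158). Pool 4 thus held the largest rise of any member in the 5 state comparisons relative to all genes. When the probe sets of a gene were averaged, Rae1 came to 0.22 in total RNA (adjusted p = 0.263), 0.05 in pool 3 (0.819) and 0.25 in pool 4 (0.131), none of them called. The average takes in a set low in signal (mean log2 5.74 over all 30 arrays, against 8.89 for the chosen set).

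**Figure D2:**
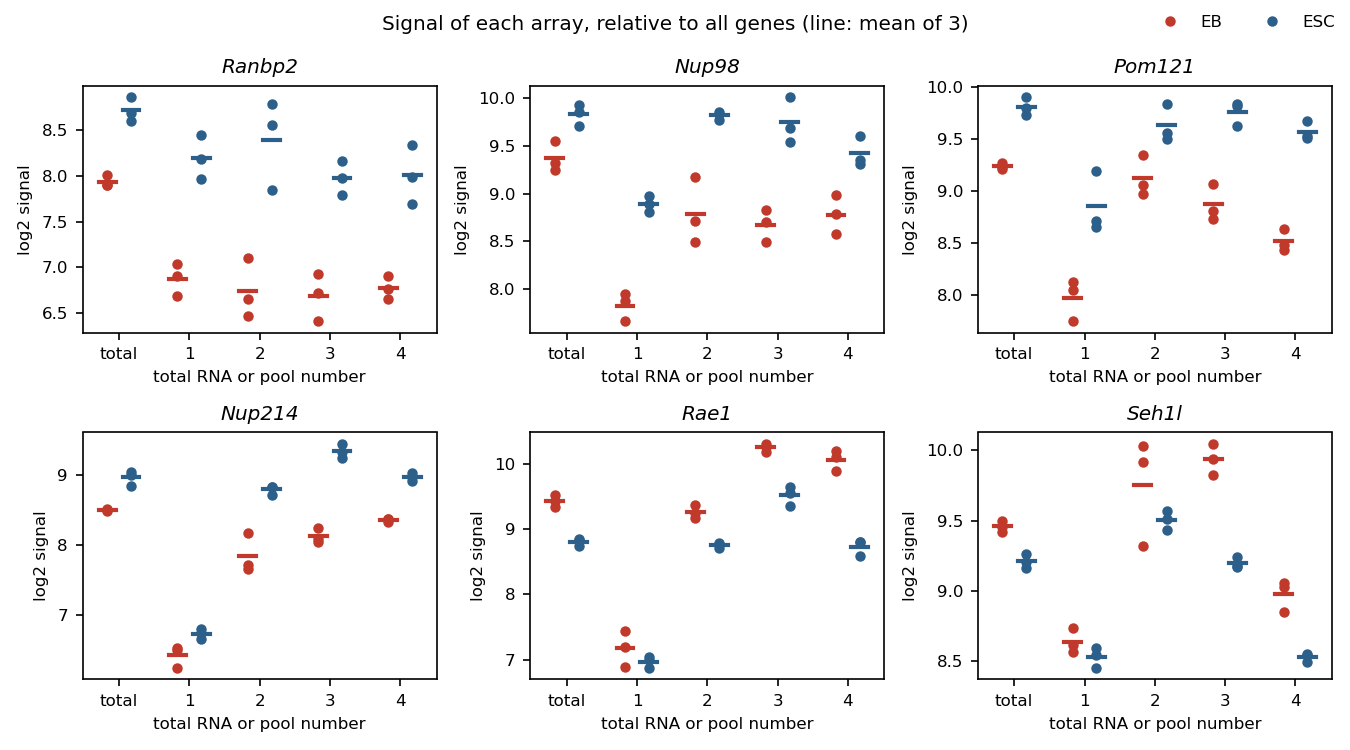
Log2 signal of each array, relative to all genes in that RNA sample (each of total RNA and pools 1 to 4 normalized on its own), for Ranbp2, Nup98, Pom121, Nup214, Rae1 and Seh1l; EB points stand left of ESC points and short lines are means of 3. EB lies below ESC in all 5 samples for Ranbp2, Nup98, Pom121 and Nup214 and above it on average for Rae1 and Seh1l; on the deposited scale the total RNA of each is higher in EB, as are pools 3 and 4 of Nup98, Pom121 and Nup214.

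Nup98 encodes both the FG protein Nup98 and, from the same precursor, the Y complex subunit Nup96. In total RNA it had 9.56, 9.25 and 9.32 in EB and 9.86, 9.71 and 9.93 in ESC, and the difference of -0.46 ± 0.13 did not pass (adjusted p = 0.06). It fell in all 4 pools relative to all genes, with differences of -1.07 ± 0.10, -1.03 ± 0.22, -1.08 ± 0.16 and -0.64 ± 0.13 in pools 1 to 4. In pool 1 its values were 7.94, 7.87 and 7.66 in EB and 8.81, 8.90 and 8.97 in ESC, clearly apart. The pool 2 call was lost without EB replicate 1 (adjusted p = 0.0852), EB replicate 2 (0.088) or any ESC replicate (0.107, 0.105 and 0.0783). As deposited it was higher in EB in total RNA (0.79), pool 3 (0.23) and pool 4 (0.66). The other Nup98 probe set went the opposite way: it rose by 1.09 in total RNA, 0.74 in pool 3 and 0.89 in pool 4, all called in a fit over all probe sets. The fall of Nup98 is thus a reading of 1 probe set, and the average of both gave 0.10 in pool 4 (adjusted p = 0.498).

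In the nuclear basket, Nup153, which binds chromatin and import receptors, was called lower in pool 1 (-0.71 ± 0.15), and Nup50, which helps importin release its cargo, was called higher there (0.50 ± 0.11). Neither was called in another state comparison. The Nup153 call was lost without EB replicate 2 (adjusted p = 0.0773), ESC replicate 1 (0.109), ESC replicate 2 (0.113) or ESC replicate 3 (0.0677). The Nup50 call was lost in 5 of 6 omissions, with an adjusted p of 0.0999, 0.0916 and 0.0905 without EB replicates 1, 2 and 3, and of 0.11 and 0.0915 without ESC replicates 1 and 3. With its probe sets averaged, Nup50 turned to -0.067 in pool 1.

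The Y complex, the outer ring scaffold, had 0 of its 8 members called by limma in total RNA (1 higher and 1 lower at an unadjusted p under 0.05), with differences between -0.30 for Nup160 and 0.25 for Nup107 and Seh1l. In pool 4, 6 of the 8 were called higher in EB, against 15.4% of all genes. They were Nup37 (0.59 ± 0.09), Nup43 (0.57 ± 0.18), Nup85 (0.47 ± 0.12), Seh1l (0.45 ± 0.09), Sec13 (0.38 ± 0.10) and Nup107 (0.29 ± 0.09). As deposited, all 8 were called higher in pool 4, as were 75.4% of all genes. Nup37 had 9.86, 9.71 and 9.67 in EB pool 4 and 9.14, 9.12 and 9.21 in ESC pool 4, well apart, while the EB and ESC values of Nup43 overlapped. Sec13 is also a subunit of the COPII coat and Seh1l of the nutrient-sensing GATOR2 complex, so their transcripts serve more than the pore. Calls of Nup107 were lost without any 1 array (adjusted p from 0.0506 to 0.0931). Those of Nup85 were lost without EB replicate 1 or 2 or ESC replicate 1 or 2 (0.067, 0.0506, 0.0592 and 0.085), and those of Sec13 and Nup43 in 4 of 6 omissions each (0.0733 to 0.082 for Sec13 without EB replicate 2 or 3 or ESC replicate 1 or 2, and 0.105 to 0.154 for Nup43 without the same arrays). Averaged over its probe sets, Seh1l came to 0.10 in pool 4 and was not called.

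In pool 3 the Y complex split. Nup133, a stem subunit that anchors the complex to the membrane, had 9.46, 9.52 and 9.55 in EB and 10.71, 10.86 and 10.72 in ESC, a difference of -1.25 ± 0.12 (adjusted p = 0.000191). The EB values lay more than 1 log2 unit below the ESC values, but on the deposited scale the difference was 0.023. Nup107, its partner in the stem, was lower too (-0.50 ± 0.13; 0.82 deposited), a call lost without EB replicate 2 or 3 or ESC replicate 2 (adjusted p = 0.0749, 0.0613 and 0.0596). Seh1l had 10.05, 9.94 and 9.83 in EB and 9.24, 9.18 and 9.17 in ESC, a difference of 0.74 ± 0.12 (adjusted p = 0.00242) that averaged 0.19 over its probe sets and was then not called. Nup43 was higher by 0.57 ± 0.14 (lost without EB replicate 2, EB replicate 3 or ESC replicate 1, adjusted p = 0.0567, 0.067 and 0.0505). In pool 1, Nup160, a Y complex arm subunit, was called lower (-0.83 ± 0.12), and Nup43 and Sec13 were called higher (0.58 ± 0.10 and 0.34 ± 0.08). The Sec13 call in pool 1 was lost without any 1 array (adjusted p from 0.0683 to 0.112) and that of Nup43 without ESC replicate 1 or 2 (0.0604 and 0.0708).

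Inner ring members were called in pools 3 and 4, and 0 of 4 were called by limma in total RNA (0 higher and 1 lower at an unadjusted p under 0.05), where their differences ran from -0.34 for Nup188 to 0.16 for Nup93. In pool 3, 3 of the 4 were called lower, against 11.3% of all genes. The differences were -0.81 ± 0.14 for Nup205, -0.72 ± 0.13 for Nup188 and -0.52 ± 0.11 for Nup93 (0.49, 0.53 and 0.78 on the deposited scale). Nup93, which links the large scaffold subunits to the channel proteins, had 9.70 in all 3 EB cultures of pool 3 and 10.19, 10.23 and 10.25 in ESC. In pool 4 it had 10.28, 10.27 and 10.17 in EB and 9.83, 9.81 and 9.84 in ESC, higher by 0.41 ± 0.09. The order of the states was thus opposite in the neighbouring pools, with no overlap in either. Nup155, the inner ring subunit next to the membrane, was called higher in pool 4 by 0.31 ± 0.10, a call lost without all but ESC replicate 2 (adjusted p from 0.062 to 0.145), and its probe sets averaged to 0.02.

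The central channel is lined by Nup62, Nup54 and Nupl1 (Nup58), FG proteins that form a trimer. In total RNA 0 of the 3 were called by limma (1 higher and 0 lower at an unadjusted p under 0.05), and Nupl1 came nearest, with 11.28, 11.29 and 11.12 in EB and 10.92, 10.88 and 10.84 in ESC (0.35 ± 0.11, adjusted p = 0.0737). Nupl1 was called higher in pool 4 (0.43 ± 0.10). Nup62 was called lower in pool 3 (-0.41 ± 0.11; 0.83 deposited), a call lost without any 1 array (adjusted p from 0.0508 to 0.0941). Nup54 differed by -0.98 ± 0.30 in pool 1, by -0.81 ± 0.40 in pool 2 and by 0.37 ± 0.18 in pool 4, none of them called. The probe set that stood for Nup54, and that of Nup62, carry the array maker's x suffix, given to sets with some probes that also match other transcripts. Those of Nupl1, Nup107, Nup43 and Seh1l carry another suffix, s, and how specific any set is was not tested.

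Of the membrane group, Pom121, a transmembrane protein with FG repeats, fell most widely. In total RNA it had 9.27, 9.21 and 9.24 in EB and 9.73, 9.80 and 9.90 in ESC, a difference of -0.57 ± 0.10 (adjusted p = 0.0182; 0.67 deposited). The groups did not overlap, but the call was lost without EB replicate 1, 2 or 3 or ESC replicate 3 (adjusted p = 0.0689, 0.0682, 0.0593 and 0.0503). Pom121 was also lower in pool 1 (-0.88 ± 0.18) and pool 3 (-0.89 ± 0.14; 0.41 deposited), with the pool 1 call lost without any 1 array (adjusted p from 0.0593 to 0.0856). In pool 4 it had 8.64, 8.44 and 8.48 in EB and 9.51, 9.53 and 9.68 in ESC, a difference of -1.05 ± 0.10 (adjusted p = 0.00022; 0.23 deposited).

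Of the other membrane proteins, Nup210 was called lower in pools 3 and 4, Ndc1 lower in pool 4, and Aaas higher in pools 1 and 4. Nup210, a large glycoprotein of the pore membrane, had 6.44, 6.84 and 6.83 in EB pool 4 and 7.41, 7.56 and 7.53 in ESC pool 4, a difference of -0.80 ± 0.13 (0.30 deposited). It was also lower in pool 3 (-0.40 ± 0.13; 0.75 deposited), a call lost in all omissions but that of ESC replicate 1 (adjusted p from 0.0818 to 0.145), and it differed by -0.07 in total RNA. Ndc1, a transmembrane anchor of the scaffold, was lower in pool 4 (-0.79 ± 0.11; 0.39 deposited). Aaas (aladin), which Ndc1 holds at the pore, was higher by 0.81 ± 0.15 in pool 1 and by 0.54 ± 0.11 in pool 4. The pool 1 call of Aaas was lost without EB replicate 1 or any ESC replicate (adjusted p = 0.0594, 0.0848, 0.0862 and 0.0673). Ndc1 and Aaas, which bind each other, thus lay on opposite sides of the other genes in EB pool 4 relative to ESC, and both were above 0 as deposited.

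Position on the gradient was summarised for each culture by a pool ratio: pools 1 and 2 were averaged and subtracted from the average of pools 3 and 4 (log2), after normalization over the pool arrays. The ratio compares array signals made from equal RNA inputs, which need not equal amounts of mRNA in the gradient. Within EB, 11 members had a ratio different from that of all genes (9 higher and 2 lower), against 35.9% of all genes, and their median over the 27 was 0.33. Within ESC, 20 members did (14 higher and 6 lower), against 35.9% of all genes, with a median of 0.26. The counts on the deposited scale were 24 higher and 0 lower in EB, where 62.7% of all genes were called (59.1% higher and 3.62% lower), and 8 higher and 8 lower in ESC, where 28.2% were called (7.86% higher and 20.3% lower).

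Within ESC, Y complex members were called on both sides of the ratio of all genes, while within EB none was called below it. The median SE over all genes was larger within EB (0.14) than within ESC (0.093). The test of the state difference in pool ratio called 0 of the 8 Y complex members (2 higher and 1 lower at an unadjusted limma p under 0.05). Nup133 had ratios of 1.02, 1.34 and 1.01 in EB cultures (mean 1.13 ± 0.14, SE) and of 1.50, 1.56 and 1.56 in ESC cultures (1.54 ± 0.08). Another Nup133 probe set was called in the opposite direction within EB. Nup107 averaged 1.35 ± 0.17 in EB and 1.10 ± 0.11 in ESC, and Nup85, in the same complex, 1.24 ± 0.15 in EB and 0.89 ± 0.10 in ESC. Against these, Seh1l averaged -0.13 ± 0.14 in EB, not called, and -0.59 ± 0.08 in ESC, and Nup160 averaged -0.10 ± 0.13 in EB, not called, and -0.66 ± 0.10 in ESC (as deposited, the EB values were 0.85 for Seh1l and 0.88 for Nup160). Rae1 had the highest ratio of any member in EB, with 1.29, 1.80 and 1.59 (1.56 ± 0.15), and 0.86, 0.74 and 0.96 in ESC (0.86 ± 0.09). Its EB ratio is a reading of 1 probe set. The other Rae1 set was called in the opposite direction within EB, but it was low in signal. Its mean was 5.74 (log2) over all 30 arrays, against 8.89 for the chosen set. Nup93 stood at 1.04 ± 0.13 in EB and 1.07 ± 0.08 in ESC, and Nup214 at 0.75 ± 0.13 in EB and 1.01 ± 0.09 in ESC.

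Ranbp2, Ndc1 and Nup155 had mean ratios below 0 in both states. Ranbp2 had -0.33, -0.67 and -0.39 in EB (-0.46 ± 0.14) and -1.13, -0.66 and -0.47 in ESC (-0.75 ± 0.13). Its EB call was lost without EB replicate 1 or 2 (adjusted p = 0.0706 and 0.192), and its other probe set gave 0.17 in EB and 0.07 in ESC, neither called. Ndc1 averaged -0.64 ± 0.15 in EB and -0.60 ± 0.09 in ESC, and on the deposited scale the EB values of Ndc1 and Ranbp2 turned to 0.26 and 0.30. Nup155 averaged -0.34 ± 0.13 in EB, not called (0.66 deposited), and -0.72 ± 0.08 in ESC, but its other probe set was called at 0.61 in both states. Nup54 averaged 0.54 ± 0.19 in EB, not called, and -0.59 ± 0.09 in ESC. Without 1 array in turn, the EB calls of Aaas (adjusted p = 0.185 without EB replicate 1 and 0.204 without EB replicate 2) and Nup37 (0.179 and 0.135) were lost. The ESC calls lost in this way were those of Nup43 (0.0935, 0.157 and 0.108 without ESC replicates 1, 2 and 3), Nup205 (0.0512 without ESC replicate 3), Nup210 (0.142 without ESC replicate 2) and Nup50 (0.0662 without ESC replicate 1).

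**Figure D3:**
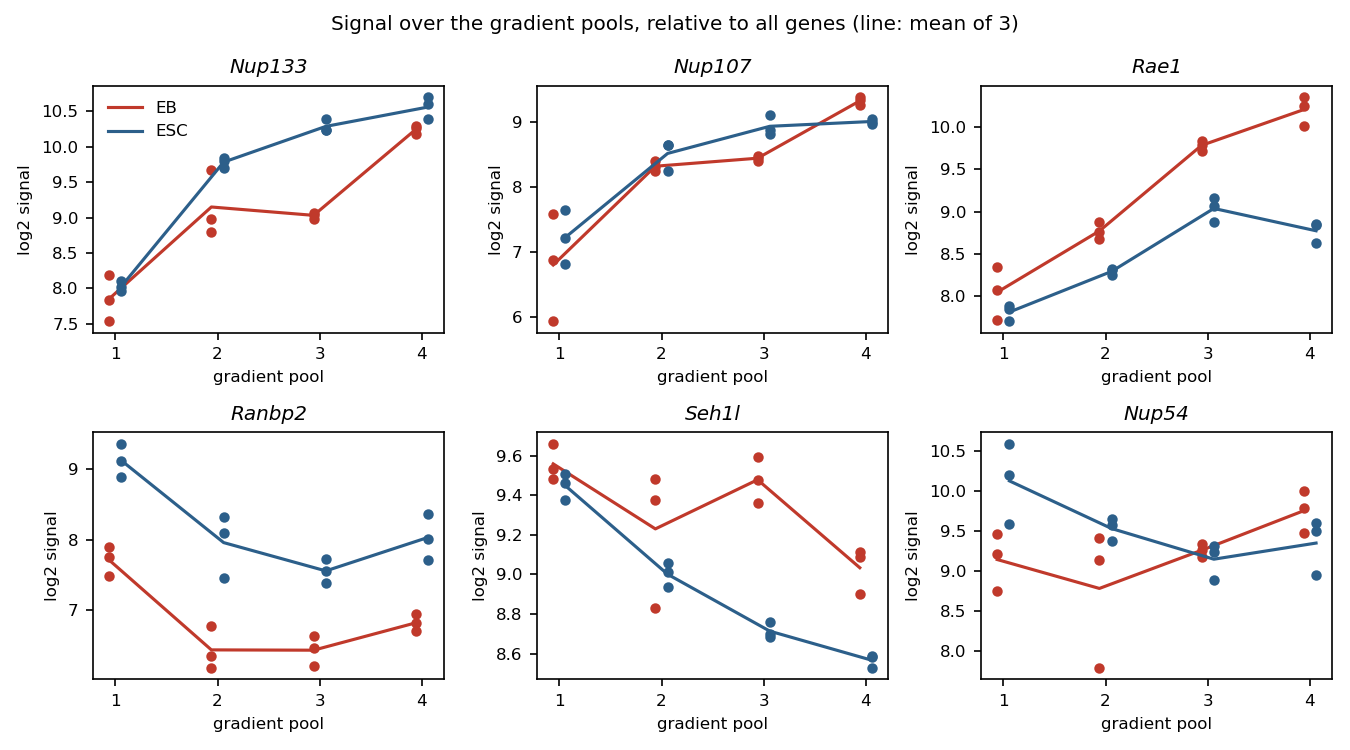
Log2 signal relative to all genes in gradient pools 1 to 4 (across) for 6 members, normalized over the 24 pool arrays; points are cultures and lines join the means of 3. Nup133, Nup107 and Rae1 are lowest in pool 1 in both states, Ranbp2 and Seh1l are highest in pool 1 in both states, and Nup54 is highest in pool 4 in EB and in pool 1 in ESC; on the deposited scale the pool ratios of Ranbp2 and Seh1l in EB turn above 0.

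By the pool with the highest mean signal relative to all genes, 7 members peaked in pool 1, 0 in pool 2, 1 in pool 3 and 19 in pool 4 in EB, against 27.3%, 25.2%, 16.6% and 30.8% of all genes. In ESC 11 peaked in pool 1, 0 in pool 2, 5 in pool 3 and 11 in pool 4, against 35.9%, 21%, 20% and 23.1% of all genes. The peak pool was the same in both states for 19 of the 27, and the share of all genes for which it was the same was not counted. The remaining members peaked in pool 4 in EB: Nup153, Nup54, Nup98 and Nupl1 peaked in pool 1 in ESC, and Nup37, Nup50, Rae1 and Sec13 in pool 3 in ESC. Nup133 had a higher mean in each later ESC pool, with means of 8.03, 9.78, 10.29 and 10.56 in pools 1 to 4, whereas in EB pools 2 and 3 were level at 9.15 and 9.03 before 10.25 in pool 4. None of the 27 tested members lay at the floor on any pool array, while Nup210l, which was not tested, lay at it on 18 of its 24 pool arrays.

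The test of the state difference in pool ratio called 2 members, both higher in EB, against 9.34% of all genes, with 7 higher and 3 lower at an unadjusted limma p under 0.05. The median over the 27 was 0.0020, against 0.0053 over all genes. As deposited, 25 of the 27 were called higher and none lower, against 64.5% of all genes higher and 64.6% in either direction. Median centring called 10 members and a larger offset 8. Nup54 had ratios of 0.35, 0.15 and 1.14 in EB and -0.61, -0.47 and -0.66 in ESC, a difference of 1.12 ± 0.23 (adjusted p = 0.0123; 2.30 deposited). Its cultures lay on opposite sides of 0 in the 2 states, and the call held without each of the 6 cultures. A further Nup54 probe set was called too, at 0.65, while the average over its probe sets gave 0.41 (adjusted p = 0.0685). Rae1 had 1.31, 1.82 and 1.61 in EB and 0.85, 0.74 and 0.96 in ESC, a difference of 0.73 ± 0.17 (adjusted p = 0.0221; 1.78 deposited). The call of Rae1 was lost without EB replicate 2 (0.0669), ESC replicate 1 (0.0691) or ESC replicate 2 (0.0953), which left 1 member called each time, and its value turned to -0.086 when probe sets were averaged.

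The next largest differences were not called. Nup153 had -0.04, 0.17 and 0.39 in EB and -0.74, -0.54 and 0.10 in ESC, which overlap (0.57 ± 0.22, adjusted p = 0.116). Nup160 had -0.09, -0.26 and 0.03 in EB and -0.86, -0.64 and -0.45 in ESC, which do not (0.54 ± 0.17, adjusted p = 0.0601). At the other end Nup62, a partner of Nup54 in the channel trimer, had 0.25, 0.43 and 0.28 in EB and 0.77, 0.87 and 0.79 in ESC (-0.49 ± 0.15, adjusted p = 0.0577; 0.74 deposited).

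**Figure D4:**
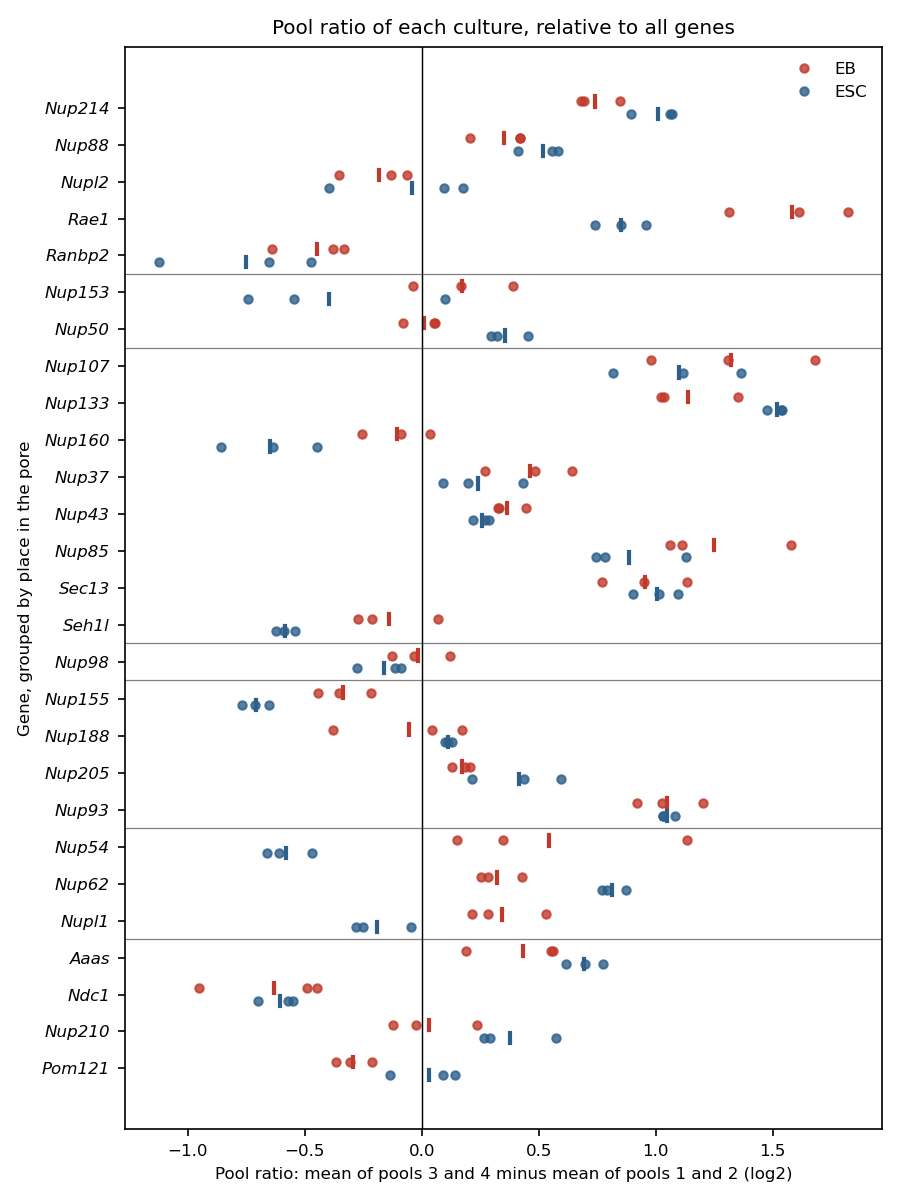
Pool ratio (log2, mean of pools 3 and 4 minus mean of pools 1 and 2, relative to all genes) of each culture (points) and the mean of 3 (bars) for the 27 tested members, EB above ESC within each gene. EB and ESC points are separate and on opposite sides of 0 for Nup54 and Nupl1, and the Y complex spans from Nup160 below 0 to Nup133, Nup107 and Nup85 near or above 1; on the deposited scale all EB means are above 0.

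Several probe sets reported 21 of the 28 genes, and 63 of the 73 sets passed the filter, 36 of them beside the sets used above. In a fit over all probe sets, the others had the same sign as the chosen set for 20 of 36 in total RNA, 22, 21, 26 and 22 of 36 in pools 1 to 4, 22 in the state difference of the pool ratio and 27 in each state's own ratio. Some other sets were called in the direction opposite to a called member: 1 in pool 3 and 2 in pool 4 (Nup98 in both, and Nup155 at -0.36 in pool 4), 2 within EB (Rae1 at -0.70 and Nup133 at -0.45) and 1 within ESC (Nup155 at 0.61). The other comparisons had 0 such sets. For Ranbp2, the other probe set was called lower in total RNA (-1.01) and in pools 1 to 4 (-0.82, -1.55, -1.38 and -1.20). The other Pom121 set was called lower in pools 1, 3 and 4 (-0.52, -0.99 and -0.70) and stood at -0.40 in total RNA. The other Nup214 set was below 0 in all 5 and called in none, with -0.54 in total RNA. A second Nup153 set was called lower in total RNA (-0.54), where the chosen one stood at 0.22. The other Rae1 set lay near the filter, with a mean of 5.74 (log2) where the lowest mean past the filter was 5.58. It gave 0.19 in total RNA and -0.13 in pool 4, neither called.

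**Figure D5:**
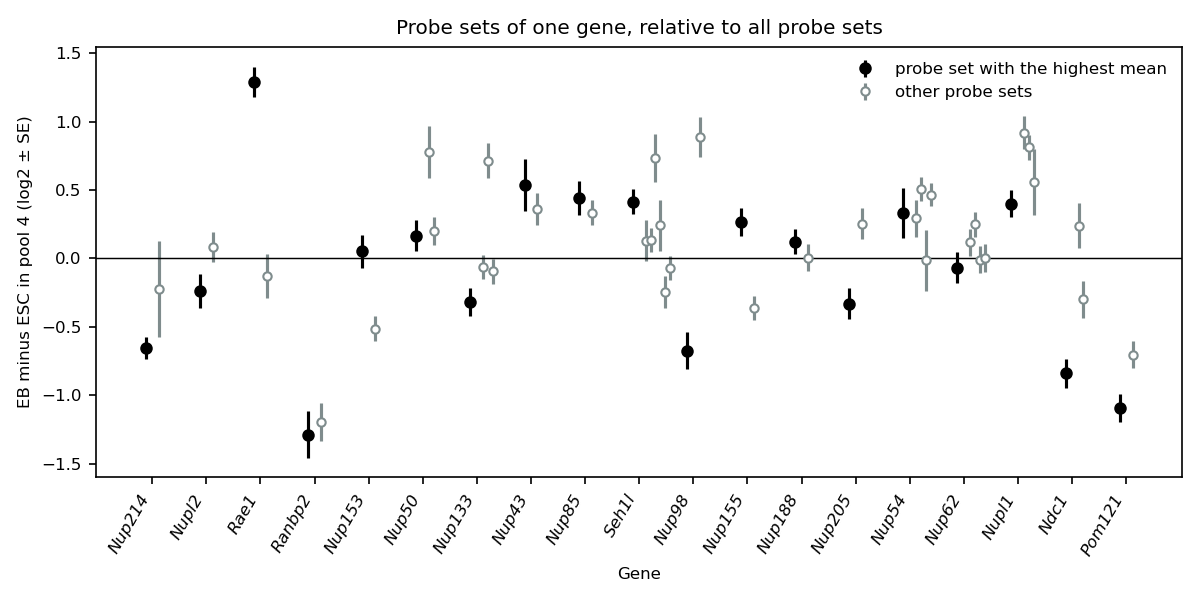
Difference between EB and ESC in pool 4 (log2 ± SE, relative to all probe sets) for each probe set past the filter of members with more than 1; filled points are the sets used for the gene and open points the others. Both sets lie far below 0 for Ranbp2 and Pom121, and the 2 sets lie on opposite sides of 0 for Nup98 and Rae1; on the deposited scale the sets used for Pom121 and Nup98 are above 0 and that of Ranbp2 is below.

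Transport factors that pass through the pore gave the surrounding pathway, from lists set with earlier results of these data known. In total RNA 2 of 16 importins were called higher and 3 lower, 1 of 7 exportins lower and 0 higher (also 0 at an unadjusted limma p under 0.05), 0 of 6 Ran cycle genes in either direction (1 higher and 2 lower at an unadjusted limma p under 0.05), 2 of 21 mRNA export factors higher and 2 lower, and 1 of 5 pore assembly and pore-bound genes lower with none higher. Of all genes, 6.55% were called higher and 6.09% lower in total RNA. Kpna2, the importin alpha abundant in ESC, rose by 0.99 ± 0.10, and Ipo5, an importin beta, fell by 0.60 on the log2 scale (0.55 deposited). Xpot, the tRNA export receptor, was lower (-0.46 ± 0.12; 0.73 deposited). Among mRNA export factors Sarnp was lower (-0.85 ± 0.10; 0.28 deposited) and the helicase Ddx39b higher (0.71 ± 0.12). Ran itself differed by -0.06 ± 0.10.

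Ahctf1 (ELYS), which brings the Y complex to chromatin when pores are rebuilt after mitosis, was called lower in all 5 state comparisons, as Ranbp2 was. In total RNA it had 9.49, 9.51 and 9.27 in EB and 10.04, 9.89 and 9.98 in ESC (-0.54 ± 0.12, adjusted p = 0.0285; 0.70 deposited). In pools 1 to 4 it differed by -1.13 ± 0.07, -1.64 ± 0.18, -1.18 ± 0.12 and -1.03 ± 0.09, with no overlap in any of them. The deposited values were -1.16, -1.29, 0.12 and 0.25.

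In pool 3, 7 of 16 importins and 5 of 7 exportins were called lower and 1 and 0 higher, while in pool 4, 7 importins and 1 exportin were called higher and 0 of either lower (2 importins and 2 exportins lower at an unadjusted limma p under 0.05). Of all genes, 11.7% were called higher and 11.3% lower in pool 3, and 15.4% higher and 14.6% lower in pool 4. As deposited, 9 importins and 2 exportins were called higher in pool 3 and all 16 and 7 in pool 4, with none lower, beside the 54.9% and 75.4% of all genes called higher in pools 3 and 4. The pore genes had 3 higher and 12 lower in pool 3 and 12 higher and 6 lower in pool 4 relative to all genes. In the state difference of the pool ratio, 4 of 16 importins were called higher and 0 lower, against 4.18% and 5.16% of all genes. At an unadjusted limma p under 0.05, 8 were higher and 0 lower. As deposited, all 16 were called higher, against 64.5% of all genes. Relative to all genes, the importins were led by Kpna4 (0.92 ± 0.19) and Tnpo1 (0.81 ± 0.21). Xpot (0.91 ± 0.16), the mRNA export factor Chtop (0.81 ± 0.17) and the SUMO protease Senp2 (0.71 ± 0.20), which binds the basket, were higher as well. Rangrf, a Ran-binding protein, was the 1 transport gene called lower (-0.96 ± 0.16; 0.17 deposited).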

How the data were processed

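Total RNA and 4 gradient pools of 3 EB and 3 ESC cultures were measured on 30 Affymetrix mouse arrays from 2.5 ug of RNA each, with 12 fractions combined into the pools. The authors deposited log2 signals, for which MAS5 and affy were used per the submitters' processing notes, without versions or settings; the genome build is not given in the sources used here. From the values, each array had been scaled to spike-in RNAs, and pool arrays had a floor, at which 18.3% to 59.1% of probe sets lay. No raw array files or read depths were used, and the number of arrays limits the precision.

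Probe sets were named from the array's gene table (34945 had 1 symbol, 932 several, 9160 none, and 64 were controls). Signals were returned to the linear scale, 32 was added and log2 taken, the dimmest 40% of probe sets by mean were left out, and the brightest set of each gene was kept. Tests were two-sided and came from limma 3.58.1 (R 4.3.3; linear models with empirical Bayes moderation) after quantile normalization over the arrays of each comparison, with Benjamini-Hochberg adjustment over 13250 genes and a threshold of 0.05. The procedure was first tried on simulated data, for total RNA and for the state difference of the pool ratio only. Those values were drawn independently, without a shift of all genes, so they cannot speak to the choice of scale. "Called" means past that threshold, and "deposited" is the same fit on the authors' scale. Pools were fitted 1 at a time, so their values differ from those in the pool profiles, which were normalized over all pools. Values in every array are given for members called without overlap in total RNA and for the 4 largest differences in pool ratio, and the 3 highest and 3 lowest called members are named in the other comparisons.

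Members and lists were chosen with earlier results of these data known. Replicate numbers were checked for pairing: deviations of same-numbered EB and ESC cultures from their group means correlated above 0.1 in every pair in no comparison relative to all genes, so no block was used there. On the deposited scale they did in pool 1 (0.54, 0.32 and 0.34) and pool 2 (0.34, 0.14 and 0.15), and the block was added for these. Pool arrays of the same replicate number shared a floor in EB and ESC (3.8, 2.93 and 3.35 for replicates 1, 2 and 3, log2). Relative to all genes, each culture correlated best with its own number in pool 3 (0.17, 0.064 and 0.07). The same held for the pool ratio (0.071, 0.096 and 0.024). Pairing by replicate number is thus possible there too, and the counts with the block are given at the end. Alternatives were the deposited scale, median centring, a larger offset, no filter, the mean over probe sets, the replicate block and leaving out each replicate; the fit of every probe set and the block on the deposited scale were chosen after seeing the data. Promoter sequences were RefSeq's (GRCm38.p6).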

Additional observations from a re-analysis of the deposited data

Results flagged for a closer look

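The pool ratio of 3 members differed between the states by the test or had opposite signs in all cultures of EB and ESC. For Nup54 the tested difference, EB minus ESC, was 1.12 ± 0.23 (log2, adjusted p = 0.0123), with every EB culture above 0 and every ESC culture below it. For Rae1 the tested difference was 0.73 ± 0.17 (adjusted p = 0.0221), with every culture of both states above 0. The Rae1 call was lost without EB replicate 2, ESC replicate 1 or ESC replicate 2 (adjusted p = 0.0669, 0.0691 and 0.0953). Its difference also turned below 0 when probe sets were averaged, so it rests on 1 probe set. The other Rae1 set lay near the filter on low signal (mean log2 5.74, against 8.89 for the chosen set). For Nupl1 every EB culture lay above 0 (0.53, 0.21 and 0.28) and every ESC culture below it (-0.28, -0.04 and -0.25), and the difference of 0.53 ± 0.16 did not pass the test of the difference (adjusted p = 0.0554). Nup54 and Nupl1 encode partners in the channel trimer, and another Nupl1 probe set was called at 0.76. The remaining partner, Nup62, differed in the opposite direction (-0.49, not called), so the trimer genes did not shift together. EB replicate 3 gave the highest Nup54 ratio, 1.14, and its pool 2 array was the one that stood apart; without it the call of Nup54 held.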

How the results depend on the processing

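Counts of called members were 4 in total RNA, 10, 3, 15 and 18 in pools 1 to 4, 2 in the state difference of the pool ratio, 11 within EB and 20 within ESC. On the deposited scale they were 27, 0, 0, 15, 23, 25, 24 and 16, against 79.2%, 0%, 2.41%, 55%, 75.8%, 64.6%, 62.7% and 28.2% of all genes, and the split turned to 15 higher and 0 lower in pool 3. Median centring gave 9 in total RNA, 10 in the state difference and 19 within EB, and a larger offset gave 8, 8 and 18, with 5 in pool 2. No filter gave 5 in pool 1. The replicate block, not used relative to all genes because no comparison had every pair's correlation over 0.1, gave 1 in total RNA (Ranbp2) and 6 in pool 1, and 2, 14, 18 and 2 in pools 2 to 4 and the state difference. On the deposited scale, where same-numbered arrays correlated in pools 1 and 2, the block (chosen after seeing the data) gave 0 in pool 1 and 2 in pool 2. Leaving out 1 replicate gave 1 to 3 in total RNA, 3 to 7, 0 to 4, 11 to 13 and 13 to 16 in pools 1 to 4, 1 to 3 in the state difference, 8 to 12 within EB and 18 to 19 within ESC.

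Of the 83 single calls, 21 changed direction on the deposited scale, where all genes shift. In total RNA Nup214 came to 0.83, Pom121 to 0.67 and Ranbp2 to 0.47. In pool 3 Nup107 came to 0.82, Nup133 to 0.023, Nup188 to 0.53, Nup205 to 0.49, Nup210 to 0.75, Nup214 to 0.071, Nup62 to 0.83, Nup93 to 0.78, Nup98 to 0.23, Nupl2 to 0.36 and Pom121 to 0.41. In pool 4 Ndc1 came to 0.39, Nup210 to 0.30, Nup214 to 0.68, Nup98 to 0.66 and Pom121 to 0.23, and within EB Ndc1 came to 0.26 and Ranbp2 to 0.30. With probe sets averaged, 3 changed direction: Nup50 in pool 1 (-0.067), Nup98 in pool 4 (0.10) and the Rae1 state difference (-0.086). No call changed direction under median centring, the larger offset, no filter, either block or leaving out 1 replicate. Where the cause is not the scaling itself, the cause was not tested.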
